A study of Mus musculus with 6 samples.

Results

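Heat shock proteins and their DnaJ cochaperones were followed in mouse embryonic stem cells as they formed presomitic mesoderm, the tissue that later segments into somites. The members were every gene whose symbol on the array starts with Hspa, Hspb, Hspd, Hspe or Hsph followed by a number, with Hsp90, or with Dnaja, Dnajb or Dnajc. This name rule found 172 probe sets, of which 169 carried 1 gene symbol and 3 listed several symbols and were left unnamed. The 169 probe sets stand for 70 genes, 26 of them heat shock protein genes and 44 DnaJ genes, of 18193 genes on the array. Of the 70 genes, 59 lay above the filter on low signal, a level of 13.5, and were tested. The other 11 are given by their values near the end. Hsp90ab1 was not analysed here.

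The cells were of the E14 line, on the 129P2/OlaHsd background, and carried a Venus reporter of Msgn1, a gene of the posterior presomitic mesoderm. They were differentiated as a monolayer with 0.5% DMSO in medium that held 15% fetal bovine serum. Recombinant R-spondin3 at 10 ng/mL, which strengthens Wnt signalling, and recombinant Noggin at 200 ng/mL, which binds BMP ligands, were added. Both groups received this same mixture, and Venus-positive cells were sorted from both: 3 samples at day 3 and 3 at day 4, each hybridised to 1 Affymetrix array. Day is the only labelled difference. The labels call the samples biological replicates without saying what separated them, so p-values measure the spread between these samples. Sorted cells are a mixture selected by 1 reporter, so fewer cells of a type and less RNA per cell cannot be told apart in any value below.

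Heat shock proteins are chaperones named by their approximate mass. Hsp70 proteins bind and release unfolded stretches of protein in a cycle driven by ATP, DnaJ proteins bring them their clients and start ATP hydrolysis, and nucleotide exchange factors, the Hsp110 proteins among them, reset the cycle. Hsp90 finishes the folding of kinases and receptors, Hsp60 with Hsp10 forms the folding cage of the mitochondrion, and small heat shock proteins hold unfolding proteins without ATP. Some members, such as Hspa1a and Hspb1, are switched on by heat shock factors under stress, others, such as Hspa8, are made at all times, and those of the endoplasmic reticulum (ER) follow the unfolded protein response.

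The reporter's own gene Msgn1 had a mean signal of 74.6 at day 3 and 33.2 at day 4, a log2 change of -1.17 with an adjusted p of 0.00723. Posterior presomitic markers, Msgn1 among them, summed to between 3000 and 3222 at day 3 and between 4590 and 4868 at day 4. Of these 8 genes 1 was higher, Rspo3 (mean signal 1275 to 2695), and 2 were lower, Msgn1 and Wnt3a. Pluripotency and epiblast markers summed to between 8829 and 9202 at day 3 and between 6035 and 6278 at day 4, with 6 of 8 genes lower. Anterior presomitic and somite markers summed to between 402 and 441 at day 3 and between 1194 and 1528 at day 4, with 5 of 6 tested genes higher. Among the 5, Meox1 had a mean of 8.55 at day 3, under the filter level, and of 55.3 at day 4. It passed the filter only through its day 4 signals, so its test adds no support. Markers of other cell types the gate could hold also moved. The cardiac sum ran from 306 to 320 at day 3 and from 452 to 503 at day 4. Of 9 cardiac genes 3 were higher (Hand2, Myl7 and Gata4), but 5 had changes below 0, and the median log2 change was -0.2. The endoderm sum ran from 592 to 659 at day 3 and from 369 to 388 at day 4. Endothelium and blood markers summed to between 652 and 677 at day 3 and between 690 and 931 at day 4, with 1 gene higher (Kdr) and 1 lower (Etv2) of 6 tested, while Pecam1 stayed at or below 4.38 on every array. Neural markers summed to between 172 and 202 and then to between 108 and 137, with 1 gene lower (Nes) of 3 tested, while Sox1 stayed at or below 3.83. Trimmed mean signals of the 6 arrays differed by 1.10%. The ratio of 3′ to 5′ signal of the Gapdh control, a measure of intact RNA and of its amplification, was 14.0 on day 4 replicate 1 and between 2.43 and 3.19 on the other arrays. Between the days the exact permutation p of this ratio was 0.3 (2-sided, where 3 arrays against 3 cannot go below 0.1). The part of these markers and of RNA quality in the changes below was not tested. Fits without single arrays were read for the members, for up to 3 genes of each partner list, and for Xbp1 and Manf. Where leaving out day 4 replicate 1 changed the call of one of these that is named, the value without it is given beside the result. Markers and other genes named below were not checked in this way.

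Of the 59 tested members, 15 were lower at day 4, 3 were higher and 41 did not pass. Together 18 were called at an adjusted p under 0.05, with p-values adjusted over all 12285 genes tested. Of all genes tested, 22.2% were called, 11.5% higher and 10.7% lower. Among the members the share called was 30.5%, and calls in the direction of a fall outnumbered rises, whereas over all genes they were about even. The median log2 change was -0.19 over the 59 members and -0.01 over all genes. The change was below 0 for 41 of 59 members (69.5%), and for 26 of the 41 that did not pass, against 51.3% of all genes tested. The heat shock proteins had 1 higher and 8 lower of 21 tested (42.9% called) with a median of -0.19. The 1 higher was Hspb11, which is counted here by its name only. The DnaJ genes had 2 higher and 7 lower of 38 (23.7% called), a share near that of all genes, with a median of -0.18. The difference between these classes was not tested. Leaving out replicate 2 or 3 of day 3 lowered the number of called members to 11 and 9, and leaving out replicate 3 of day 4 lowered it to 11. It was 22 without day 4 replicate 1.

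**Figure D1:**
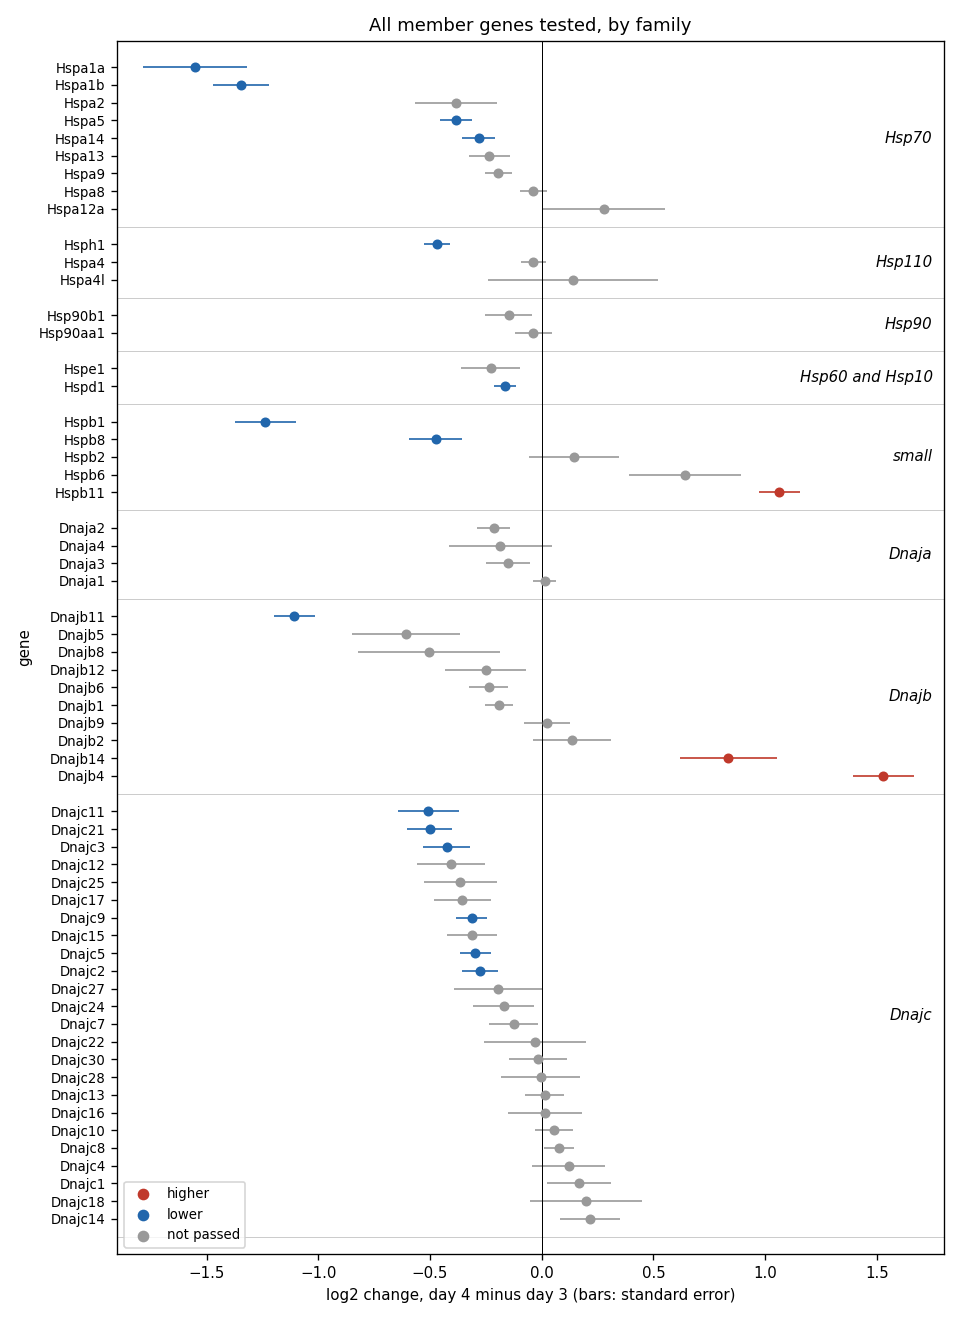
Log2 change from day 3 to day 4 of the 59 tested member genes by family, where each point is 1 gene with its standard error and the vertical line marks 0. Most points lie below 0, and the 3 genes called higher are Dnajb4, Hspb11 and Dnajb14.

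Over all genes tested 10.7% were lower and 11.5% higher, shares that stand beside each count of this paragraph. By family, 4 of 9 tested Hsp70 genes were lower and none was higher, 1 of 3 Hsp110 genes was lower, and 1 of the 2 mitochondrial chaperonin genes was lower. By limma 0 of 2 Hsp90 genes and 0 of 4 Dnaja genes passed, with 0 and 1 of them at an unadjusted p under 0.05. Among the genes named as small heat shock proteins 1 of 5 was higher and 2 were lower. The 1 higher was Hspb11, which encodes a subunit of ciliary transport, as described below. Dnajb genes had 2 higher and 1 lower of 10, and the Dnajc genes, the largest and most varied class of J proteins, had 6 lower of 24. By the compartment each protein is known for, 9 of 31 cytosolic and nuclear members were lower and 1 was higher, 3 of 10 ER members were lower and 1 was higher, and 2 of 7 mitochondrial members were lower. All 7 mitochondrial members had changes below 0, as had 51.3% of all genes, but 5 of them did not pass.

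Among the largest falls were those of the inducible cytosolic chaperones Hspa1a, Hspa1b and Hspb1. Dnajb1 and Hsp90aa1, which are also inducible, did not pass, as given below. Hspa1b, an Hsp70 made on heat stress, had signals of 336, 413 and 420.3 on the day 3 arrays and of 140.04, 162 and 156 on the day 4 arrays. Every day 4 value was less than the lowest day 3 value. The mean fell from 390 ± 46.7 to 153 ± 11.4 (SD, n = 3), a log2 change of -1.35 (SE 0.125, adjusted p = 0.000137), so that day 3 was 2.54 times day 4. Its other probe sets changed by -1.42 and -1.48. Hspa1a, the neighbouring copy of the same gene, read 48.3, 66.1 and 77.5 at day 3 and 22.04, 19.8 and 22.5 at day 4. The days again did not overlap, at a log2 change of -1.55 (SE 0.234, adjusted p = 0.00173). The coding sequences of this pair are nearly identical, so the split of signal between them is uncertain.

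Hspb1 encodes Hsp27, a small heat shock protein that holds unfolding proteins and protects actin filaments. It had signals of 978, 755 and 752 at day 3 and of 404, 323 and 325 at day 4. Its log2 change was -1.24 (SE 0.135, adjusted p = 0.000302), and its other probe set changed by -1.14 (adjusted p = 0.00558). Hsph1 is the inducible Hsp110, an exchange factor for Hsp70. Its signals lay close together within each day, at 3261, 3201 and 3216 and then at 2333, 2401 and 2262. The log2 change was -0.47 (SE 0.059, adjusted p = 0.000683), while the dimmer probe set of Hsph1 changed by -1.03 (adjusted p = 0.00951). All 4 of these genes had every day 4 value under every day 3 value, and all kept the call without any single array. Hspb8, a small heat shock protein that works with Bag3 in the removal of damaged proteins, fell by 0.47 on the log2 scale (adjusted p = 0.0194).

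**Figure D2:**
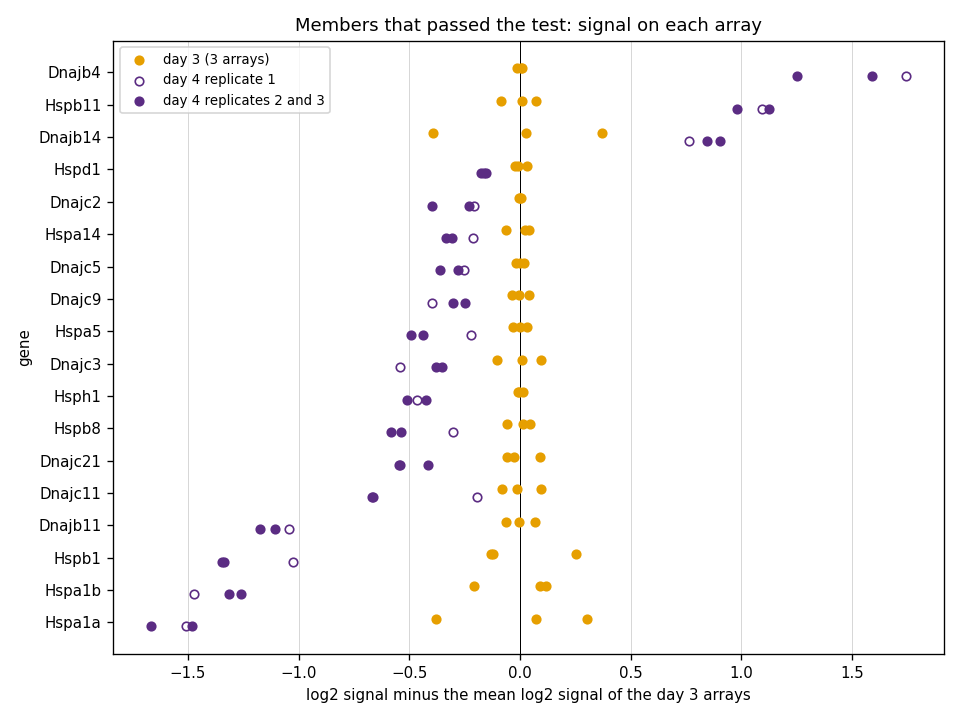
Log2 signal on each of the 6 arrays minus the mean log2 signal of the 3 day 3 arrays, for the 18 members that passed the test, where each point is 1 array and day 4 replicate 1 is drawn open. In none of the 18 do the days overlap, as in 99.8% of all genes called, with Dnajb4 at the rising end (mean signal 125 to 363) and Hspa1b (390 to 153) near the falling end.

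Not every gene of the heat shock programme passed. Dnajb1, the main inducible J protein of the cytosol, read 2392, 2361 and 2221 at day 3 and 2012, 2082 and 2010.01 at day 4. These days did not overlap either, but the log2 change was -0.19 (SE 0.064, adjusted p = 0.0601), and it reached 0.0418 without day 4 replicate 1. In the list of heat shock factors and their regulators, 0 of 3 tested genes passed limma's test, and 0 had an unadjusted p under 0.05. Of the 6 genes listed 5 had a probe set, and Hsf4 and Hsf5 were under the filter. Hsf1 was not among the tested genes, so its level is not known here. Hsf2bp lay near the filter level, at means of 13.95 and 16.63. Hsbp1, which binds heat shock factor trimers, had a log2 change of 0.12, Hsf2bp of 0.38 and Hsf2 of -0.02. The last 2 turned sign when single arrays were left out, Hsf2bp to -0.11 without day 3 replicate 2 and Hsf2 to 0.15 without either day 3 replicate 2 or day 4 replicate 1. The immediate early genes, which respond quickly to serum and handling, split both ways: Egr1, Jun and Fos were higher and Atf3, Ier3 and Dusp1 lower, of 10 tested. Their summed signal ran from 4036 to 4761 at day 3 and from 5016 to 5462 at day 4, and its part in the falls was not tested.

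Heat shock factors bind GAA units in alternating orientation, and the windows around the starts of the member genes were searched for them because Hspa1a, Hspa1b, Hspb1 and Hsph1, which heat stress is known to induce, were all lower. The windows are RefSeq's of GRCm38.p6, 300 bases from 250 before to 50 after a start, and 57 of the 70 members had one. The search was for 2 facing units, GAANNTTC or TTCNNGAA, both of which read the same on either strand. Capitals mark the units.
Hspa1b, chr17:34959315-34959362, minus strand: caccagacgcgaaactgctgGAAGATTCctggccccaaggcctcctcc
Hspb1, chr5:135887782-135887829, plus strand: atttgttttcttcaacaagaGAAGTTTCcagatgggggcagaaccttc
Hspb1, chr5:135887802-135887849, plus strand: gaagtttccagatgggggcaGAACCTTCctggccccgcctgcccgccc
Hsph1, chr5:149636342-149636389, minus strand: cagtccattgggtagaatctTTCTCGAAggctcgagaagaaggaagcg
Dnajb4, chr3:152193846-152193879, minus strand: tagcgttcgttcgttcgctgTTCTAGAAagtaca
The stretch of Hspa1a, at chr17:34972233-34972280 on the minus strand, is the same as that of Hspa1b letter for letter, and the 300-base windows of the pair differ at 4 bases. The stretches of Hspb1 overlap, so its match lies 117 to 110 and again 97 to 90 bases before the start.

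Such a pair of units was in the windows of 16 of 57 members, or 28.1%, against 17.0% of 27025 genes with a window. The count is of genes with a match in any of their windows, and 15 members had over 1 window. Of 12 members called lower with a window 6 had a match, as had 1 of 3 called higher, which is Dnajb4, and 7 of 32 that did not pass. The 6 include the 4 genes that prompted the search, beside Hspd1 and Hspb8. The match of Hspb8 lies after the start. Runs of 3 units, which overlap the pairs, were rarer, in 4 of 57 members (7.02%) and in 0.662% of all genes. These 4 members were Hspd1, Hspe1, Hsph1 and Dnajb6, of which Hspd1 and Hsph1 were called lower. The run of 3 units of Hsph1 lies after the start. The windows of both chaperonin genes share 1 stretch, since they are read outward from a shared promoter, and it is shown here once in each direction. Another match of 3 units overlaps the one in capitals, so the run is longer than the capitals show. It lies 144 to 132 bases before the start of Hspd1 and 84 to 72 bases before that of Hspe1.
Hspd1, chr1:55088039-55088091, minus strand: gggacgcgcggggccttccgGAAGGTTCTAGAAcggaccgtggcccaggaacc
Hspe1, chr1:55088039-55088091, plus strand: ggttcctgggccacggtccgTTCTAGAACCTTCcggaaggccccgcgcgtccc
Dnajb6, chr5:29735832-29735884, plus strand: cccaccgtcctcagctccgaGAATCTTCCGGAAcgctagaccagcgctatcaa
A match describes the letters of a window and is not a site of binding.

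The chaperones of the cytosol that are made at all times showed small changes. Hspa8, the constitutive Hsp70, read 9605, 10210.5 and 10588 at day 3 and 9167, 10396 and 10085 at day 4. The days overlapped, at a log2 change of -0.04 (SE 0.06, adjusted p = 0.702), and the sign turned to 0.02 without day 4 replicate 1. A dim probe set of Hspa8 went the other way, from a mean of 88.4 to 208 (adjusted p = 0.0023), while its other 2 bright probe sets changed by -0.03 each. Hspa4, a constitutive Hsp110, changed by -0.04 (SE 0.054, adjusted p = 0.666), and 1 of its dimmer probe sets was lower (log2 change -0.44, adjusted p = 0.0373). Hspa4l, its dim relative, changed by 0.14 with an SE of 0.382 and turned negative without day 3 replicate 1 or day 4 replicate 3. Hspa2, best known from the testis, changed by -0.38 (SE 0.183, adjusted p = 0.165).

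Hsp90aa1, the inducible cytosolic Hsp90, read 7461, 8166 and 7753 at day 3 and 6681, 7797 and 8394 at day 4, so the days overlapped. Its log2 change was -0.04 (SE 0.081, adjusted p = 0.78), and it turned to 0.06 without day 4 replicate 1. Another bright probe set of Hsp90aa1 was lower by test, from 7346 to 6325 (log2 change -0.22, adjusted p = 0.0221). A further bright one, from 5934 to 5181, changed by -0.20 (adjusted p = 0.0504). Dnaja1, a cytosolic J protein that works with Hspa8, showed the same split. Its representing probe set changed by 0.01 (SE 0.052, adjusted p = 0.874), another by -0.46 (adjusted p = 0.00305) and a further one by -0.51 (adjusted p = 0.0653). The direction of the representing probe set was negative under median centring, at -0.02. Dnaja2, a close relative, changed by -0.22 (SE 0.074, adjusted p = 0.0648). Its other probe sets changed by -0.577 (adjusted p = 0.0233), -0.115 (adjusted p = 0.399) and 0.585 (adjusted p = 0.0697). Dnajc7, which carries clients between Hsp70 and Hsp90, changed by -0.13 (SE 0.109, adjusted p = 0.444). Without day 4 replicate 1 the change of Dnajc7 was -0.25, with an adjusted p of 0.0262.

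Hspa14 and Dnajc2 encode the partners of the ribosome-associated complex, which receives new protein chains as they leave the ribosome, and both were lower at day 4. Hspa14 read 1528, 1621 and 1641 at day 3 and 1379, 1291 and 1267 at day 4 (log2 change -0.28, SE 0.073, adjusted p = 0.0214). Dnajc2 read 1118.3, 1118.34 and 1123 at day 3 and 969.6, 956 and 851 at day 4 (log2 change -0.28, SE 0.081, adjusted p = 0.0359). Neither overlapped between days. Dnajc21, known from the maturation of the large ribosomal subunit, fell from 409 ± 22.6 to 289 ± 14.9 (SD, n = 3), a log2 change of -0.50 (adjusted p = 0.00643). Its second bright probe set changed by -0.58, but the mean over all 5 of its probe sets, of which 2 were under the filter, did not pass. Dnajc9, a chaperone of histones H3 and H4, fell from 2028 ± 54.5 to 1632 ± 84.5 (log2 change -0.31, adjusted p = 0.0112). Dnajc5, the cysteine string protein of secretory vesicles, fell by 0.30 on the log2 scale (adjusted p = 0.0154), but its other 4 probe sets changed by between -0.27 and 0.14.

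In the ER, Hspa5 and the J proteins Dnajb11 and Dnajc3 were lower at day 4, and 6 of the 10 ER members, other J proteins among them, did not pass. Dnajb11, or ERdj3, which hands unfolded proteins to the ER Hsp70 Hspa5, had signals of 664, 692 and 728 at day 3 and of 337, 308 and 322 at day 4. It had the smallest p of all members, at a log2 change of -1.11 (SE 0.091, adjusted p = 7.07e-05), and the groups lay far apart. Hspa5, known as BiP or Grp78, the main Hsp70 of the ER and sensor of its folding load, read 6398, 6128 and 6253 and then 5376, 4617 and 4456. The log2 change was -0.38 (SE 0.073, adjusted p = 0.00558), and its other probe sets changed by -0.71 (adjusted p = 0.000341) and -0.60 (adjusted p = 0.0269). Dnajc3, or p58IPK, another J partner of Hspa5, read 354, 383 and 406 and then 261, 293 and 298, a log2 change of -0.43 (SE 0.105, adjusted p = 0.0182). Another probe set of Dnajc3 fell from 457 to 217 (log2 change -1.08, adjusted p = 0.00124). Without day 4 replicate 1 that probe set was the brighter and stood for the gene, at a log2 change of -0.95 (adjusted p = 0.000109).

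The rest of the ER members were mixed. Hsp90b1, or Grp94, the ER Hsp90, read 3626, 4010 and 4058 at day 3 and 3012, 3501 and 4116 at day 4, which overlap (log2 change -0.15, SE 0.105, adjusted p = 0.348). Its dimmer probe set fell from 1361 to 811 (log2 change -0.77, adjusted p = 0.00534). Without day 4 replicate 1 the change of Hsp90b1 was -0.04, and as the mean over its probe sets -0.46 (adjusted p = 0.0035). Hspa13, a microsomal relative of Hsp70, changed by -0.23 (SE 0.0927, adjusted p = 0.101). The J proteins Dnajc10 (log2 change 0.05, adjusted p = 0.694), Dnajc1 (0.17, adjusted p = 0.444) and Dnajb12 (-0.25, adjusted p = 0.357) did not pass. Other probe sets of Dnajc10 changed by -0.25 (adjusted p = 0.0952) and -0.52 (adjusted p = 0.0571). Dnajb9, or ERdj4, a J protein induced by the unfolded protein response, changed by 0.02 (SE 0.103, adjusted p = 0.904), and by -0.02 without day 4 replicate 1 or -0.01 under median centring. Dnajb14, a J protein in the ER membrane, was the ER member called higher, from 38.6, 49.0 and 28.9 to 64.3, 68.0 and 71.0 (log2 change 0.84, SE 0.216, adjusted p = 0.0218).

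The promoters of the unfolded protein response hold an ER stress element, CCAAT and CCACG with 9 bases between, which was searched on both strands. It was in the windows of 3 of 57 members (5.26%), namely Hspa5, Dnajc3 and Hsp90b1, and in 37 of 27025 genes (0.137%). The window of Hsp90b1 held another copy in the opposite orientation. Capitals mark the whole element.
Hspa5, chr2:34772005-34772063, plus strand: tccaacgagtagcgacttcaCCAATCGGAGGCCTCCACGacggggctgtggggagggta
Dnajc3, chr14:118937807-118937865, plus strand: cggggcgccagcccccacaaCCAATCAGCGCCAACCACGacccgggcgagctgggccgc
Hsp90b1, chr10:86705618-86705676, minus strand: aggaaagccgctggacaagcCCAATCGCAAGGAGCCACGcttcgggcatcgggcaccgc
Of these, Hspa5 and Dnajc3 were called lower, and Hsp90b1 was lower on 1 of its 2 probe sets.

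Other genes of the ER were also lower at day 4. Of 22 tested genes of ER folding and the unfolded protein response outside the members, 10 were lower and none was higher, beside 10.7% lower over all genes, with a median log2 change of -0.35. The change was below 0 for 15 of the 22. Others of the list had changes above 0 without passing: Ddit3 (0.45), Ern1 (0.42), Herpud1 (0.37), Eif2ak3 (0.32) and Atf6 (0.25). Their adjusted p lay between 0.0803 and 0.301. These genes were not checked without single arrays. Day 4 replicate 1 was the highest day 4 array for all of them but Herpud1. Ern1 read 155 on that array and 114 and 103 on the other day 4 arrays, and Eif2ak3 read 225, then 158 and 149. Creld2, a secreted disulphide isomerase made under ER stress, fell from 680 ± 5.64 to 324 ± 13.9 (log2 change -1.07, SE 0.087, adjusted p = 6.96e-05). Pdia3, the disulphide isomerase of glycoproteins, changed by -0.80 (adjusted p = 0.00031). Calr, the lectin chaperone calreticulin, changed by -0.52 (adjusted p = 0.000416). Hyou1, the Hsp110 of the ER, fell from 1414 to 916 (log2 change -0.63, adjusted p = 0.0111), with an adjusted p of 0.0537 without day 3 replicate 1 and of 0.0568 when replicate 3 of day 3 was dropped. Chosen after their values were seen, Xbp1, a transcription factor of the unfolded protein response, changed by -0.70 (adjusted p = 0.00103) and Manf, a secreted ER stress protein, by -0.97 (adjusted p = 0.000507). Without suffixed probe sets, which can match several transcripts, Xbp1 did not pass (adjusted p = 0.218), and Hyou1 did not pass either (adjusted p = 0.0846). The summed signal of endoderm markers was also lower, as given above, with 3 of 5 tested genes lower. Their part in the ER genes' change was not tested.

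**Figure D3:**
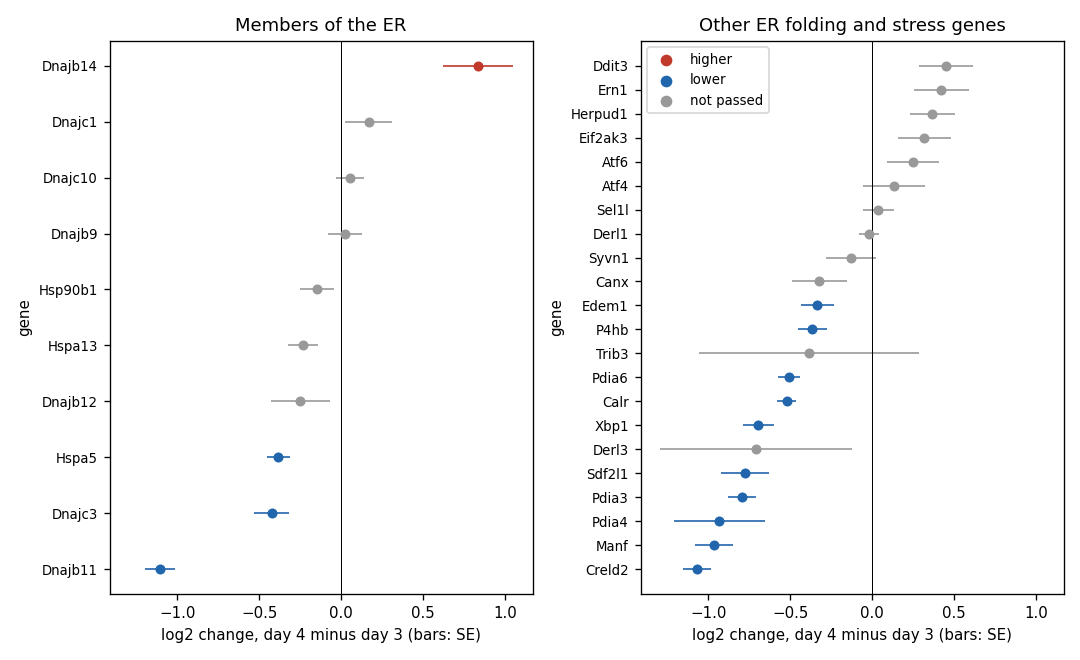
Log2 change from day 3 to day 4 of the ER members and of the other tested genes of ER folding and the unfolded protein response, 1 point per gene with its standard error. Dnajb11 at -1.11 and Creld2 at -1.07 lie lowest among the called genes, and Dnajb14 at 0.84 is the one called higher.

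In the mitochondrion, 2 of 7 members passed, Hspd1 and Dnajc11, and both were lower (28.6% called, beside 22.2% of all genes). Each lost the call on dropping any single array other than day 4 replicate 1, as given below. Hspd1, the Hsp60 that forms the folding cage, read 5426, 5225 and 5268 at day 3 and 4745, 4691 and 4769 at day 4. Its log2 change of -0.16 (SE 0.05, adjusted p = 0.0426) was the smallest among the called members. Hspe1, the Hsp10 lid of that cage, read 3764, 3326 and 3807 and then 3925, 2720 and 2771, with day 4 replicate 1 above every day 3 array. Its log2 change was -0.23 (SE 0.131, adjusted p = 0.239), and -0.40 (adjusted p = 0.00135) without day 4 replicate 1. Hspa9, the mitochondrial Hsp70 or mortalin, read 5429, 5209 and 4818.5 and then 4366, 4653 and 4485 without overlap (log2 change -0.19, SE 0.062, adjusted p = 0.0501).

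Dnajc11, which is linked to the cristae of the inner membrane, fell from 596 to 423 (log2 change -0.51, SE 0.136, adjusted p = 0.0251). The mean over its 4 probe sets, 1 of them under the filter, gave a change of 0.04. Dnaja3, the J partner of Hspa9, changed by -0.15 (SE 0.097, adjusted p = 0.296), and by 0.23 as the mean over its probe sets. The exchange factor Grpel1, which resets Hspa9, was lower at day 4, from 1437 ± 57.2 to 1026 ± 17.1 (log2 change -0.49, SE 0.072, adjusted p = 0.00162). Of 15 genes of mitochondrial import and proteases, 2 were lower and none was higher, a share of 13.3% called beside 22.2% of all genes. These were the matrix protease Clpp, at -0.62 (adjusted p = 0.00127), and Timm17a of the inner membrane translocase, at -0.28 (adjusted p = 0.0338). The call of Timm17a was lost on dropping replicate 1 or 3 of day 3, or replicate 2 or 3 of day 4, with adjusted p up to 0.117. Timm23, the channel of that translocase, changed by -0.24 (adjusted p = 0.0541), and passed without day 4 replicate 1 (adjusted p = 0.00204).

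Dnajb4 rose the most of the members. This cytosolic J protein, a close relative of Dnajb1, read 125, 123 and 125 at day 3 and 417, 375 and 297 at day 4. The day 4 mean was 2.89 times the day 3 mean by the fit (log2 change 1.53, SE 0.137, adjusted p = 0.00012). Its other probe sets differed from each other. One read 3.22, 4.37 and 4.29 at day 3, below the filter level, and 50.9, 40.4 and 50.8 at day 4. It passed the filter only through its day 4 signals, so its test lends the rise no support. The other changed by 0.02 at signals near 30.5 (adjusted p = 0.963). Dnajb6, a nuclear and cytosolic J protein that keeps aggregation-prone proteins soluble, had a similar division: its brightest probe set changed by -0.24 (adjusted p = 0.0774), or by -0.15 without day 4 replicate 1, and a dim one by 1.05 (adjusted p = 0.00188).

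Hspb11 also rose, from 319, 339.8 and 355 to 719, 735 and 665 (log2 change 1.06, SE 0.093, adjusted p = 0.000105). In spite of its name, Hspb11 encodes Ift25, a subunit of the intraflagellar transport complex of cilia. Its second probe set was under the filter on both days, at means of 6.96 and 6.95, and the mean over both did not pass. The tested markers of notochord, node and ciliated cells had 0 calls of 3 by limma, 0 of them with an unadjusted p under 0.05, and summed to between 99.4 and 136 at day 3 and between 104 and 123 at day 4.

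Probe sets of a gene were also tested one by one, because they can match different transcripts or ends of a transcript. Of the 169 member probe sets 132 lay above the filter, and 38 were called, 8 higher and 30 lower. Over all 22276 probe sets tested, 18.2% were called, 9.67% higher and 8.53% lower. Of the 18 called members, 13 had another tested probe set. In 10 of these every other tested probe set changed in the same direction, in 8 another was called the same way, and in none was another called the other way. The 8 include Dnajb4, whose other called probe set passed the filter only through its day 4 signals. Of the 41 members that did not pass, 9 had another probe set that was called. In Dnaja1, Dnajb6 and Hspa8 it went against the sign of the representing probe set. No member had probe sets called in both directions.

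Helpers of Hsp90 and Hsp70 outside the members were counted in the same way. Of 20 Hsp90 cochaperones, 1 was higher and none was lower, at a median of -0.18, beside 22.2% called over all genes. The one called was Unc45b, the myosin chaperone of striated muscle, from 16.6 to 44.7 (log2 change 1.45, SE 0.276, adjusted p = 0.00559). The cardiac sum was higher beside it, as given above, though 5 of the 9 cardiac genes had changes below 0. Skeletal muscle markers had 2 higher and 1 lower of 4 tested, and summed to between 528 and 576 at day 3 and between 289 and 325 at day 4. The largest part of this sum was Acta1, the gene called lower (mean 420 to 159). Those called higher were Des (26.1 to 52.6) and Mylpf (30.0 to 48.1). The part of muscle cells in the change of Unc45b was not tested. Ahsa1, the activator of the Hsp90 ATPase, changed by -0.24 (adjusted p = 0.0575) and, as the mean over its probe sets, by 0.32. Tomm34, which binds both Hsp70 and Hsp90, changed by -0.45 (adjusted p = 0.0576). It passed without day 4 replicate 1, at a smaller change of -0.27 (adjusted p = 0.0427), and without day 4 replicate 2 (log2 change -0.55, adjusted p = 0.048).

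Of 15 exchange factors and partners of Hsp70, 4 were lower and none was higher (26.7% called, beside 22.2% of all genes): Grpel1, Hyou1, Bag1 and Bag4. Bag4, a member of the BAG family of exchange factors, fell from 375 ± 19.2 to 232 ± 28.8 (log2 change -0.70, SE 0.119, adjusted p = 0.00321). The cytosolic chaperonin CCT and its prefoldin partners, which fold actin and tubulin, had no gene called lower. Of 14 tested, 2 were higher (14.3% called), Pfdn5 at 0.41 (adjusted p = 0.0152) and Pfdn2 at 0.55 (adjusted p = 0.0276), with a median of 0.06. Both lost the call without single day 3 arrays: Pfdn5 without replicate 2 (adjusted p = 0.0591) or replicate 3 (adjusted p = 0.0747), and Pfdn2 without replicate 1, 2 or 3, up to an adjusted p of 0.105. Averaged over its probe sets, Pfdn5 changed by -0.01. Cct4 changed by 0.17 (adjusted p = 0.051) and passed without day 4 replicate 1 (adjusted p = 0.00746), while the mean over its probe sets changed by -0.001. Across the 6 lists of partners 19 genes were called, 11 on dropping replicate 3 of day 3 and 32 on dropping replicate 1 of day 4.

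Of the 18 called members, 9 kept the call whichever of the 6 arrays was dropped, and 6 kept it in all settings that tested them: Dnajb11, Dnajb4, Hspa1a, Hspa1b, Hspb1 and Hsph1. The other 3 were Hspa5, which lost it without a variance trend (adjusted p = 0.0548), and Hspb11 and Dnajc21, which lost it as the mean over their probe sets, at log2 changes of 0.65 (adjusted p = 0.414) and -0.12 (adjusted p = 0.747). The remaining 9 lost it on dropping at least 1 array. Dnajc9 lost the call without day 3 replicate 3 (adjusted p = 0.0637), and Dnajc3 without day 3 replicate 2 (0.0663) or replicate 3 (0.0899). Dnajc5 lost it on dropping replicate 2 (adjusted p = 0.0597) or 3 (0.0611) of day 3, or replicate 3 of day 4 (0.0582). Hspa14 lost it on dropping replicate 2 (adjusted p = 0.0826) or 3 (0.1) of day 3, or replicate 2 (0.0779) or 3 (0.0719) of day 4. For Dnajb14 it was lost on dropping replicate 1 (adjusted p = 0.06) or 3 (0.0731) of day 3, or replicate 2 (0.0611) or 3 (0.0638) of day 4. Hspb8, Dnajc11, Dnajc2 and Hspd1 each lost it without any array but day 4 replicate 1, with adjusted p of 0.0523 to 0.0824 for Hspb8, 0.0623 to 0.0927 for Dnajc11, 0.0732 to 0.122 for Dnajc2 and 0.084 to 0.14 for Hspd1. Averaging over probe sets also ended the calls of Dnajc2 (adjusted p = 0.202), Dnajc5 (0.508) and Hspb8 (0.288), and moved the changes of Dnajc3 to -0.65, Hsph1 to -0.75 and Hspa14 to -0.93. Without a variance trend Dnajc9, Dnajc5, Dnajc11, Hspa14, Dnajc2 and Hspd1 did not pass, with adjusted p between 0.0587 and 0.208. Hspa9, which did not pass at 0.0501, passed with the higher filter (adjusted p = 0.0405) and in 4 other settings.

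The 11 members under the filter were Dnajb3, Dnajb7, Dnajb13, Dnajc5b, Dnajc5g, Dnajc6, Hspa1l, Hspa12b, Hspb3, Hspb7 and Hspb9. Several of them are known from testis, muscle or brain, such as Hspa1l of spermatids and Hspb3 of muscle. Their means lay between 0.644 for Hspb9 and 15.8 for Dnajb3 at day 3, and between 0.534 for Hspb9 and 12.0 for Dnajb3 at day 4. With no filter, 0 of the 11 passed limma's test, and 1, Dnajc5b, had an unadjusted p under 0.05 (adjusted p = 0.113). At such signals the scatter of the arrays on a log scale is wide, and Hspb3 alone read 19.4, 19.3 and 7.40 at day 3 and 2.39, 6.30 and 15.7 at day 4. Among the 41 tested members that did not pass, 12 had days that did not overlap, as did 24.7% of all genes that did not pass. Across the tested members the median SD of log2 signal was 0.0874 at day 3 and 0.139 at day 4.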

How the data were processed

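Total RNA of sorted cells was amplified in 2 rounds, labelled and hybridised to 6 arrays, per the labels' protocols, which name 2 extraction methods without saying which served which sample. The deposited values are linear signal intensities that the authors computed with MAS5, per the submitters' processing notes, for 45101 probe sets. The sources used here do not give the scaling target or the detection calls. The number of arrays limits the precision.

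Probe sets were named from the platform annotation (34958 with 1 symbol, 932 with several, 9211 not listed). On log2 of the deposited intensity, with the probe set of highest mean for each gene and a filter at the 40th percentile, limma 3.58.1 in R 4.3.3 (lmFit, eBayes with trend, 2-sided, Benjamini-Hochberg over 12285 genes, threshold 0.05) fitted day alone. SEs are limma's moderated ones, ± is the SD over 3 arrays, and changes are day 4 minus day 3. The procedure was tested on simulated data. Named were core members whatever their values, every other member called, and up to 3 genes of smallest p in each partner list. Some further members and list genes are named beside the counts they belong to. The members and lists were chosen with earlier results of these data known. Alternatives changed the offset, scaling, filter, choice of probe set, variance model, array weights, replicate block and arrays. Windows and sequences are RefSeq's of GRCm38.p6, and promoter matches were counted with no test.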

Additional observations from a re-analysis of the deposited data

How the results depend on the processing

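Counts of members called stayed within 1.5 times of 18 under all settings that kept every array; those lower were 8 without a variance trend and 24 with array weights, against 15. Array weights gave 4312 genes called (2163 higher, 2149 lower) and 35 partner genes, and the mean over probe sets gave 1796 (865 higher), against 2729. The cause was not tested. Leaving out single arrays gave 1596 to 3524 genes called (882 to 1736 higher, 714 to 1788 lower), 9 to 22 members (2 to 3 higher, 7 to 19 lower) and 11 to 32 partner genes. With the replicate block 20 members (3 higher, 17 lower) and 27 partner genes were called; same-numbered arrays of both days deviated together only at correlations of 0.067, 0.011 and -0.001, so the numbers were not taken as pairs. The direction turned for 13 results, of which Dnajc11 and Pfdn5 passed the threshold as reported. Under the mean over probe sets these were Dnaja1 (-0.321), Dnaja3 (0.228), Dnajb6 (0.178), Dnajc11 (0.041), Hspa8 (0.285), Ahsa1 (0.321), Pfdn5 (-0.014) and Cct4 (-0.001). Under median centring they were Dnaja1 (-0.018) and Dnajb9 (-0.011), with array weights Dnaja1 (0), Hsp90aa1 (0.008) and Hsf2 (0.072), and without suffixed probe sets Hspa8 (1.232). Over the fits that dropped single arrays, Dnaja1 ran from -0.003 to 0.024, Dnajb9 from -0.021 to 0.081, Hsp90aa1 from -0.11 to 0.055, Hspa4l from -0.127 to 0.468, Hspa8 from -0.075 to 0.016, Hsf2bp from -0.112 to 0.583 and Hsf2 from -0.126 to 0.153.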
